A study of Mus musculus with 19 samples.

Results

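The positioning of B lineage cells was followed through 10 genes, 9 receptors and 1 G protein subunit that steer B cells within lymphoid tissue or out of it: S1pr2, Gna13, Gpr183, Cxcr5, Ccr7, Cxcr4, Ccr6, Cxcr3, Ccr9 and Ccr10. They were picked by name, as a functional set, from 22101 genes in 4 expression tables, and all 10 are listed in every table. RNA was sequenced from cells sorted on day 28 after mice received sheep red blood cells, foreign cells widely used to induce germinal centres. The mice were labelled Pik3cg knockout (KO) or wild type (WT), 4 and 3 mice by the series design, and their alleles, strain and ages are not stated in the labels. The KO is not described as limited to a cell type, so other cells of the same mice carry the label too. The 6 groups were splenic germinal centre B cells sorted as CD95+/GL7+ (4 libraries labelled KO, 3 labelled WT), splenic naive B cells sorted as CD3-/B220+/IgD+ (3 labelled KO, 3 labelled WT), and CD138+ antibody-secreting cells labelled WT from spleen (3) and bone marrow (3). All 19 libraries came from immunized mice. Levels are counts per 1000000 assigned reads (CPM). The most repeated low value of each library was taken as the worth of 1 read. The depth estimated from it was 10.2 to 21.6 M reads per library (1 M is 1000000).

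Lymphoid follicles sort B cells by gradients of chemokines, lipids and oxysterols, which are read by receptors coupled to G proteins. S1PR2 signals through Gα13, the product of Gna13, and holds germinal centre B cells in the middle of the follicle, whereas GPR183 (also called EBI2) draws activated B cells to the outer follicle and is normally low in germinal centres. CXCR5 guides B cells into follicles, CCR7 to the T cell zone and CXCR4 to the germinal centre dark zone and the bone marrow. CCR6, CXCR3, CCR9 and CCR10 guide subsets to epithelia, inflamed tissue, gut and mucosal sites. Phosphoinositide 3-kinase γ, whose catalytic subunit Pik3cg encodes, acts downstream of such receptors through Gβγ.

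The labels and libraries were checked before the members were read. Pik3cg (ENSMUSG00000020573, chromosome 12, 32173473 to 32208659, minus strand, mm10) had 66.0, 52.8, 6.55 and 9.04 CPM in germinal centre libraries labelled KO, against 56.5, 34.3 and 19.4 CPM in those labelled WT, and had 94.98, 126.8 and 97.7 CPM in naive libraries labelled KO, against 114.5, 110.1 and 110.6 CPM in those labelled WT. Its log2 fold change was −0.60 in germinal centre B cells (limma adjusted p = 0.696) and −0.08 in naive B cells (limma adjusted p = 0.935), so its gene-level value does not separate the labels and every direction below rests on them. Of the naive and antibody-secreting cell columns, 9 that the sample labels call WT are headed HET, so whether those mice were wild type or heterozygous was not settled. The labels do not say which libraries share a mouse, so p-values measure the spread between these libraries. Of 11 germinal centre marker genes, S1pr2 included, 4 (Gcsam, Rgs13, S1pr2 and Gcnt3) were at 0 in every germinal centre library labelled WT, where the summed level was 488 to 675 CPM, against 2850 to 3877 CPM in those labelled KO. The sum of the 10 listed in the other tables averaged less: 94.5 CPM in naive libraries labelled KO and 87.5 CPM in those labelled WT. In antibody-secreting cells it averaged 103 CPM in spleen and 59.5 CPM in bone marrow. Bcl6, also on the list, averaged 1.03 CPM in libraries labelled WT and 34.0 CPM in those labelled KO. Germinal centre therefore names the sort label throughout. Whether the libraries labelled WT held germinal centre B cells, or carry the right label, was not settled. T cell genes (16) summed to 1234 to 2591 CPM in germinal centre libraries labelled KO and to 80.8 to 142 CPM in those labelled WT, where 8 of the 16, among them Cd3e, Cd3d and Cd3g, were at 0 in every library; the label of the germinal centre sort names no T cell exclusion. A two-sided exact permutation test gave p = 0.0286 for both sums, which no split of 4 and 3 libraries can go below (adjusted p = 0.0714 over 10 marker lists). Library WT 3 of the germinal centre group had Xist at 0 and Ddx3y at 159 CPM, unlike the other 6, and library KO 1 had 2971 CPM of erythroid genes, so counts are also given without both. Replicates agreed least in germinal centre libraries labelled KO (Pearson r of 0.643 to 0.716) and most in those of splenic antibody-secreting cells (0.899 to 0.932). Each r was taken across the genes averaging at least 10 CPM in that group, which are not independent replicates.

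In germinal centre B cells the retention receptor and its G protein were higher in the libraries labelled KO, the outer-follicle receptor was lower, and the follicle receptor and the epithelial and inflammatory receptors were higher. Of the 10 members, 8 reached the mean of 10 CPM set for testing, 6 passed limma's test in germinal centre B cells, with an adjusted p below 0.05 (13.6% of all 8522 tested genes did), 5 of them higher in the libraries labelled KO (8.54% of all) and 1 lower (5.09%). The groups did not overlap for 7 members (27.4% of all tested genes). S1pr2, Ccr6 and Cxcr3 passed the filter only through the group labelled KO, so these counts describe the set and are not support for it. The median log2 fold change of the 8 was 1.09, beside 0.03 over all tested genes. In naive B cells 6 members were tested and 0 passed, as for every gene tested (0.0% of 8832; 587 had an unadjusted limma p under 0.05), with a median of 0.08 beside −0.01. Fewer cells of a type and less RNA per cell cannot be told apart in such bulk libraries. The germinal centre and T cell sums moved with the labels in the same germinal centre libraries. So did 9 naive follicular B cell genes, a list that holds Ccr7 and Gpr183, which summed to 930 to 1251 CPM in libraries labelled KO and 2279 to 3488 CPM in those labelled WT, and 8 pan-B cell genes, which summed to 6617 to 7480 CPM in libraries labelled KO and 4089 to 4961 CPM in those labelled WT (exact permutation p = 0.0286 and adjusted p = 0.0714 for each). The part of these 4 sums in the differences below was not tested.

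**Figure D1:**
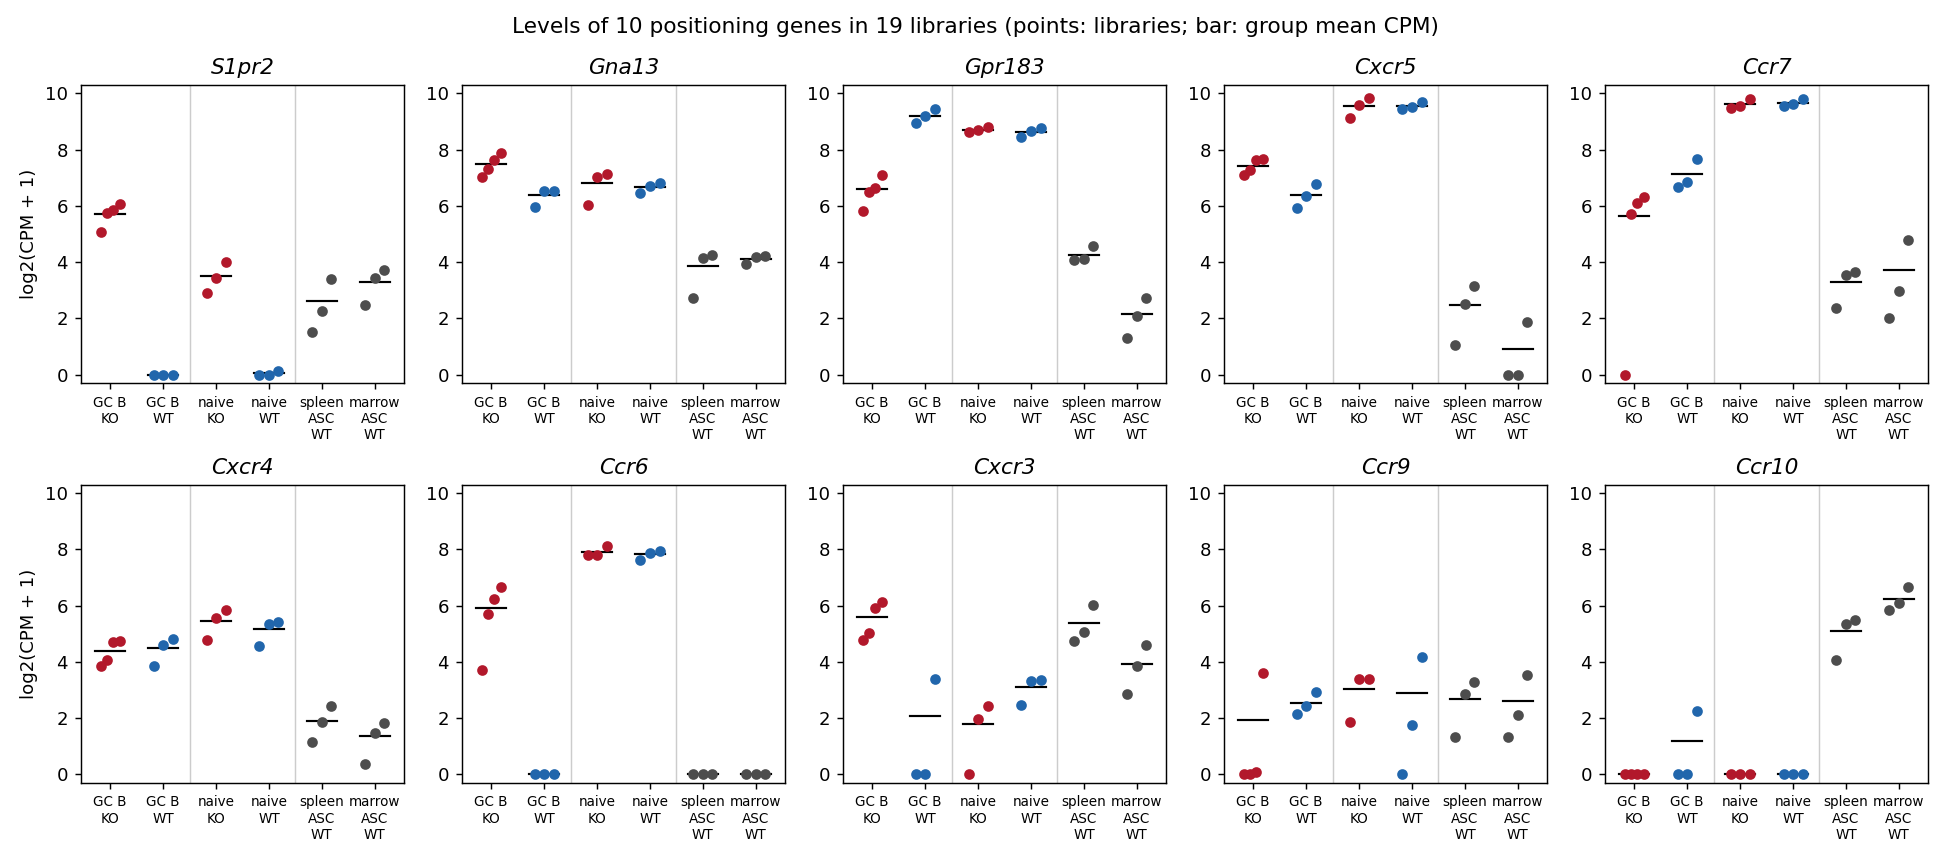
Level of each of the 10 genes, as log2(CPM + 1), in 19 libraries of 6 groups (GC B: germinal centre B cells; ASC: antibody-secreting cells; KO and WT as labelled). Points are libraries and bars are the group's mean CPM on the same scale; S1pr2 and Ccr6 are at 0 in all 3 germinal centre libraries labelled WT and between 32.6 and 66.0 CPM (S1pr2) and between 11.9 and 100.6 CPM (Ccr6) in the 4 labelled KO.

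The 300 bases around the start sites of S1pr2, Gpr183 and Ccr6 are shown because these 3 members had the smallest adjusted p-values, S1pr2 and Ccr6 higher and Gpr183 lower in germinal centre libraries labelled KO. They come from RefSeq on GRCm38.p6, run from 250 bases before to 50 after the start, and are written 5′ to 3′ on the gene's strand, S1pr2 at chr9:20976744-20977043 (minus), Gpr183 at chr14:121965144-121965443 (minus) and Ccr6, the first of its start sites, at chr17:8235793-8236092 (plus). Capitals mark the matches to 4 motifs searched on both strands: the octamer ATTTGCAT, the cAMP response element TGACGTCA, the E-box CAGGTG and the forkhead motif TGTTTAC.
S1pr2: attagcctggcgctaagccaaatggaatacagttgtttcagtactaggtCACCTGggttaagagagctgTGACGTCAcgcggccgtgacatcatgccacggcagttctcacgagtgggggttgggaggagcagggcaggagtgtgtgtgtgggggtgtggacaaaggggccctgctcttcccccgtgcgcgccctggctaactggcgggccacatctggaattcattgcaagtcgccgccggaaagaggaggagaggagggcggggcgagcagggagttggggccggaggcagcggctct
Gpr183: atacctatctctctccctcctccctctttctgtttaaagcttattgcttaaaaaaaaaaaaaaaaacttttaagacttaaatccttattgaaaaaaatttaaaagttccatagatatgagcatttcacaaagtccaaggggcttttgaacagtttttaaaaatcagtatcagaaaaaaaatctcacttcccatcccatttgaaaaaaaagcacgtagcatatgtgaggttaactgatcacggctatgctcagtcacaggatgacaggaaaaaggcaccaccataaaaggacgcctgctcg
Ccr6: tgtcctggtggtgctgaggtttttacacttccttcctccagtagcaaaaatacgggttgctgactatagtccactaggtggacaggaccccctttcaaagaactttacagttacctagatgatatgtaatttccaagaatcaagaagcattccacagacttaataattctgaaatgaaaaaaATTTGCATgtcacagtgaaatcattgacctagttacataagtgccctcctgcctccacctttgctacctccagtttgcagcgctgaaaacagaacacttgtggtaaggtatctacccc
The S1pr2 sequence held a cAMP response element from 181 bases before the start and an E-box from 201 bases before it, which 1.79% and 20.2% of 32851 promoters of this length hold. The Ccr6 sequence held an octamer from 68 bases before the start (1.74% of promoters), and none of the 4 motifs was in the Gpr183 sequence. GC content was 62% for S1pr2, 42.3% for Ccr6 and 35.3% for Gpr183, beside a median of 52.7% over all promoters. A match to these letters is a description of the sequence, not a bound site. Promoter sequences were matched for 7 of the 10 members.

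S1pr2 (ENSMUSG00000043895, chromosome 9, 20962361 to 20976781, minus strand, mm10) encodes the sphingosine-1-phosphate receptor that confines germinal centre B cells. Its level was 52.6, 32.6, 66.0 and 56.5 CPM in germinal centre libraries labelled KO, and 0 in all 3 labelled WT. Every library labelled KO was above every library labelled WT. The mean of 51.9 ± 14.0 CPM (SD, n = 4) was at least 339.7-fold higher than the largest floor of a library labelled WT, set at 3 reads or 0.153 CPM. On the log2(CPM + 1) scale, which understates the change of low genes, the difference was 5.68 ± 0.66 (SE; 95% interval 4.20 to 7.16; limma adjusted p = 0.000994), and it passed under all 17 alternatives. With 0.1 or 5 CPM added in place of 1 it was 8.98 or 3.47, both outside the interval, so its size depends on the value added.

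The same order was seen at a lower level in naive B cells, although these were not called. S1pr2 stood at 9.77, 14.9 and 6.50 CPM in naive libraries labelled KO, or 83 to 224 reads, and at 0, 0.0857 and 0 CPM in those labelled WT, or 1 read in all. The groups did not overlap (13.6% of tested genes in naive B cells did not). With its mean below the minimum of 10 CPM the gene was not tested there; with a minimum of 1 CPM the log2 difference was 3.40 ± 0.46 (SE; limma adjusted p = 0.436). Antibody-secreting cells labelled WT were not at 0, with 9.59, 1.83 and 3.78 CPM in spleen and 4.51, 9.81 and 12.1 CPM in bone marrow, so the germinal centre and naive groups labelled WT were the 2 lowest. T cell genes summed to 93.2 CPM on average in naive libraries labelled KO and 106.9 CPM in those labelled WT. Germinal centre genes, S1pr2 among them, summed to 94.5 CPM on average in naive libraries labelled KO and 87.5 CPM in those labelled WT. The part of other cell types in the naive S1pr2 values was not tested.

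Gna13 (ENSMUSG00000020611, chromosome 11, 109362831 to 109401369, plus strand), the Gα subunit through which S1PR2 signals, had 156.1, 235.1, 195.8 and 128.8 CPM in germinal centre libraries labelled KO, against 92.3, 60.7 and 92.0 CPM in those labelled WT. The lowest library labelled KO lay above the highest labelled WT. The log2 difference was 1.11 ± 0.26 (SE; 95% interval 0.51 to 1.71; limma adjusted p = 0.0240). The call was lost without library KO 3 (adjusted p = 0.0561), WT 1 (0.0505), WT 2 (0.102) or WT 3 (0.0543) and without both KO 1 and WT 3 (0.0943), all from limma. With no filter on low values it was lost as well (limma adjusted p = 0.0520). Naive libraries labelled KO had 137.6, 128.5 and 64.4 CPM and those labelled WT 102.6, 111.8 and 85.7 CPM, which overlapped (log2 difference 0.07, limma adjusted p = 0.973). Part of Gna13 lies opposite the antisense gene Gm11696, and without a stated strand setting reads of that stretch cannot be told apart.

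Gpr183 (ENSMUSG00000051212, chromosome 14, 121952551 to 121965195, minus strand) encodes the oxysterol receptor that draws B cells away from the follicle centre. It stood at 88.3, 137.1, 97.6 and 55.9 CPM in germinal centre libraries labelled KO, against 691.7, 586.8 and 493.9 CPM in those labelled WT. It was lower in every library labelled KO, with means of 94.7 ± 33.4 CPM (SD, n = 4) and 591 ± 99.0 CPM (SD, n = 3). The log2 difference was −2.68 ± 0.28 (SE; 95% interval −3.33 to −2.04; limma adjusted p = 0.000702) and passed under all 17 alternatives. Naive B cells had 395, 442 and 416 CPM in libraries labelled KO and 344, 432 and 403 CPM in those labelled WT, and did not differ past the threshold (log2 difference 0.09, 95% interval −0.17 to 0.35; limma adjusted p = 0.888). Across the groups, libraries labelled germinal centre WT therefore held the highest level, and those labelled germinal centre KO stood below both naive groups. Spleen antibody-secreting cells were lower, at 15.8, 16.2 and 22.6 CPM, and bone marrow ones lowest, at 3.20, 1.46 and 5.56 CPM. The gene lies within Ubac2 on the opposite strand, so its reads carry the same uncertainty.

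Cxcr5 (ENSMUSG00000047880, chromosome 9, 44511787 to 44561877, minus strand), the receptor for the follicle chemokine CXCL13, had 199.7, 153.9, 197.4 and 134.4 CPM in germinal centre libraries labelled KO, against 81.1, 107.4 and 59.2 CPM in those labelled WT. The groups did not overlap, and the log2 difference was 1.07 ± 0.26 (SE; 95% interval 0.48 to 1.65; limma adjusted p = 0.0254). It was lost without library KO 1 (adjusted p = 0.0635), KO 3 (0.0596), WT 1 (0.0730) or WT 3 (0.0890) and without both KO 1 and WT 3 (0.173), all from limma. With no filter on low values (limma adjusted p = 0.0537) or with a replicate block it was lost as well. Naive libraries labelled KO held 910, 561 and 768 CPM and those labelled WT 734, 828 and 691 CPM, well above both germinal centre groups and overlapping each other. Antibody-secreting cells had 7.80, 1.07 and 4.63 CPM in spleen and 0, 0 and 2.61 CPM in bone marrow. The 3′ end of Cxcr5 overlaps Bcl9l on the opposite strand.

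Ccr7 (ENSMUSG00000037944, chromosome 11, 99144196 to 99155077, minus strand) reads CCL19 and CCL21 at the border of the T cell zone. It had 51.7, 78.0, 67.7 and 0 CPM in germinal centre libraries labelled KO, against 201.3, 101.5 and 114.0 CPM in those labelled WT. Those labelled KO were all lower, but library KO 4 at 0 set a wide error: the log2 difference was −2.53 (95% interval −5.63 to 0.57; limma adjusted p = 0.268). Without KO 4 it was −1.02 (limma adjusted p = 0.0796). Naive B cells held the highest levels, 894, 712 and 754 CPM in libraries labelled KO and 794, 891 and 742 CPM in those labelled WT, and the 2 overlapped.

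Cxcr4 (ENSMUSG00000045382, chromosome 1, 128588199 to 128592293, minus strand), the CXCL12 receptor, had 13.6, 15.9, 24.9 and 25.9 CPM in germinal centre libraries labelled KO, against 13.6, 23.0 and 27.3 CPM in those labelled WT. The ranges lay on top of each other, with a log2 difference of −0.08 (95% interval −1.22 to 1.07; limma adjusted p = 0.940), an interval that still allows a change of 1 log2 unit either way. Naive B cells were at 46.1, 26.3 and 55.9 CPM in libraries labelled KO and at 40.1, 22.9 and 42.03 CPM in those labelled WT (log2 difference 0.26, 95% interval −0.55 to 1.08; limma adjusted p = 0.905). Cxcr4 mRNA was low in antibody-secreting cells, with 1.24, 4.42 and 2.62 CPM in spleen and 0.291, 1.78 and 2.56 CPM in bone marrow.

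Ccr6 (ENSMUSG00000040899, chromosome 17, 8236043 to 8257141, plus strand), the receptor for CCL20, had 51.2, 100.6, 73.6 and 11.9 CPM in germinal centre libraries labelled KO, and was at 0 in all 3 labelled WT. The mean of 59.3 ± 37.5 CPM (SD, n = 4) was at least 388-fold higher than the largest floor of 3 reads in a library labelled WT. The log2 difference was 5.57 ± 0.86 (SE; 95% interval 3.62 to 7.52; limma adjusted p = 0.00358) and passed under all 17 alternatives. With 0.1 or 5 CPM added in place of 1 it was 8.85 or 3.41, both outside the interval. Naive B cells expressed it at 222.7, 275.04 and 224.0 CPM in libraries labelled KO and 194, 247 and 232 CPM in those labelled WT, which overlapped (log2 difference 0.10, 95% interval −0.23 to 0.42; limma adjusted p = 0.905). All 6 libraries of antibody-secreting cells were at 0.

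Cxcr3 (ENSMUSG00000050232, chromosome X, 101731535 to 101734269, minus strand), a receptor for interferon-induced chemokines, had 26.2, 59.5, 31.4 and 69.8 CPM in germinal centre libraries labelled KO, against 0, 0 and 9.58 CPM in those labelled WT. The groups did not overlap, and the log2 difference was 4.33 ± 0.95 (SE; 95% interval 2.18 to 6.47; limma adjusted p = 0.0170). It was lost without library WT 1 (adjusted p = 0.0563) or WT 2 (0.0661), and with a replicate block, in limma. In naive B cells the order was the other way round, with 4.40, 0 and 2.90 CPM in libraries labelled KO and 9.34, 8.91 and 4.57 CPM in those labelled WT; this was below the level set for testing, and at a minimum of 1 CPM the limma adjusted p was 0.797. Spleen antibody-secreting cells had 25.5, 63.7 and 32.2 CPM and bone marrow ones 6.26, 23.3 and 13.3 CPM. CXCR5, CCR6 and CXCR3 are also made by subsets of T cells.

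Ccr9 and Ccr10, which guide lymphocytes to the small intestine and to mucosal and skin epithelia, were too low for a test in both B cell types. Ccr9 (ENSMUSG00000029530, chromosome 9, 123678439 to 123784330, plus strand) had 11.2, 0.0555, 0 and 0 CPM in germinal centre libraries labelled KO, against 6.57, 4.44 and 3.41 CPM in those labelled WT. Its 6 group means ran from 2.80 to 7.20 CPM with overlapping ranges, and it overlaps several genes, Slc6a20a and Lztfl1 among them. Ccr10 (ENSMUSG00000044052, chromosome 11, 101172997 to 101175443, minus strand, inside Cntnap1 on the opposite strand) was at 0 in all 4 germinal centre libraries labelled KO, against 0, 3.79 and 0 CPM in those labelled WT, and at 0 in all 6 naive libraries. Antibody-secreting cells had 56.7, 67.2 and 99.7 CPM in bone marrow and 39.6, 15.6 and 43.6 CPM in spleen. The 2 ranges did not overlap, but the tables were made separately and the difference was not tested.

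Whether the difference between libraries labelled KO and WT itself differed between the 2 B cell types was tested in 1 fit over 13 libraries. Naive libraries labelled WT are headed HET, so the genotypes compared may not be the same in both cell types. Of 8 members tested, 4 passed, 3 with a higher and 1 with a lower value in germinal centre B cells (7.83% of 8871 genes passed, 5.02% higher and 2.82% lower; medians 1.07 for the 8 and −0.02 for all tested). The difference, germinal centre minus naive, was −2.78 for Gpr183 (95% interval −3.52 to −2.03; limma adjusted p = 0.000391), 5.47 for Ccr6 (3.77 to 7.17; limma adjusted p = 0.00109) and 5.92 for Cxcr3 (3.23 to 8.60; limma adjusted p = 0.0110). These 3 passed under all 22 alternatives. Over those the value ran from −2.98 to −2.55 for Gpr183, but from 3.31 to 8.75 for Ccr6 and from 3.55 to 9.29 for Cxcr3. S1pr2 and Cxcr3 reached the mean of 10 CPM in this fit only through the germinal centre libraries labelled KO, so the count of 4 describes the set and is not support for it. S1pr2 differed by 2.28 (95% interval 1.02 to 3.54; limma adjusted p = 0.0313). Libraries labelled WT were at or near 0 in both cell types. The value therefore compares the levels of libraries labelled KO, 51.9 CPM in germinal centre and 10.4 CPM in naive B cells, across separate tables. As ratios, the naive means were 364-fold apart and the germinal centre mean was at least 339.7-fold above the floor. A difference between the cell types in the size of the S1pr2 change was thus not shown. Limma's adjusted p lay between 0.0118 and 0.140 over the 22 alternatives, of which 11 lost the call. It was lost in 7 of the 13 fits that leave out 1 library, without germinal centre WT 1 (adjusted p = 0.0627) or WT 2 (0.0709), naive KO 1 (0.0689) or KO 3 (0.0857), and naive WT 1 (0.0719), WT 2 (0.0828) or WT 3 (0.0775). Cxcr5 (1.10, limma adjusted p = 0.0570) and Gna13 (1.04, limma adjusted p = 0.170) did not pass, so for these a difference between the cell types was not shown; Cxcr5 passed without germinal centre KO 4 (adjusted p = 0.0372) or WT 2 (0.0289) in limma.

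**Figure D2:**
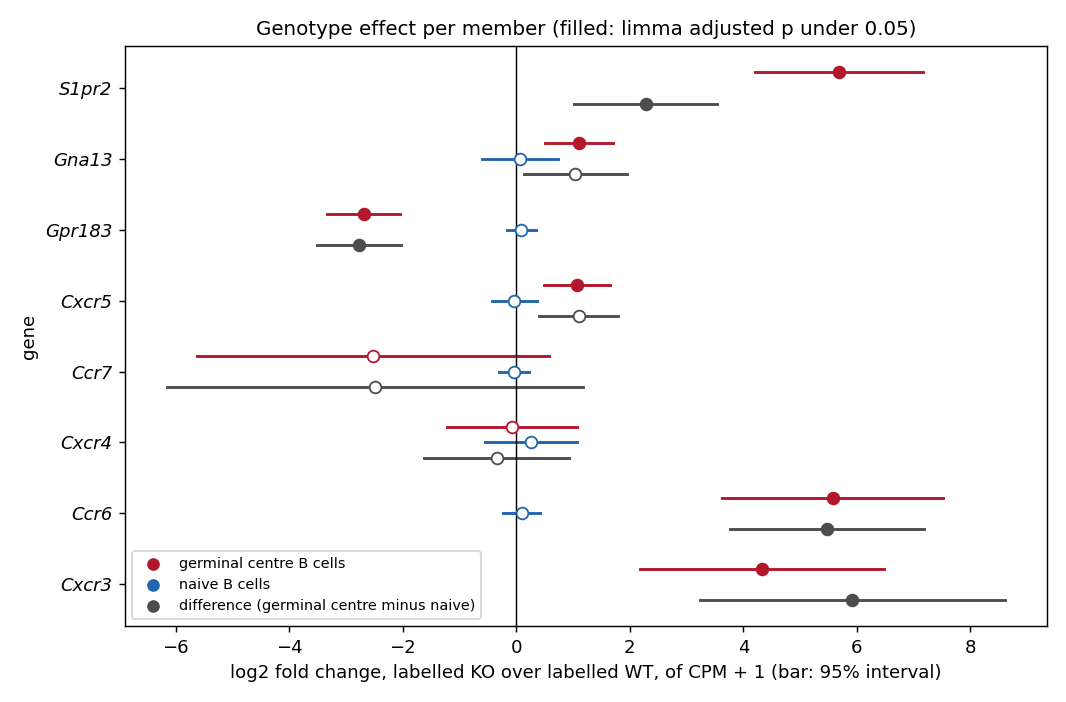
Difference between libraries labelled KO and WT, as log2 fold change of CPM + 1 with its 95% interval, in germinal centre B cells (red) and naive B cells (blue), and the difference of the 2 (grey), for the 8 members tested in at least 1 fit. Filled points passed limma's adjusted p under 0.05; all 6 naive points are open and near 0, while Gpr183 lies at −2.68 and S1pr2 at 5.68 in germinal centre B cells.

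Set per kb of exon, which allows genes to be compared within a group, the leading receptor changed from group to group. In naive B cells Ccr7 led at 398 CPM per kb in libraries labelled KO and 409 CPM per kb in those labelled WT, followed by Cxcr5 at 224 CPM per kb in those labelled KO and 225 CPM per kb in those labelled WT. In germinal centre libraries labelled KO, Cxcr5 had the highest mean at 51.4 CPM per kb, with Gpr183 at 32.8 CPM per kb and slightly above Cxcr5 in library KO 2 (47.5 and 46.2 CPM per kb). In those labelled WT, Gpr183 led at 205 CPM per kb, ahead of Ccr7 at 70.2 CPM per kb. In spleen antibody-secreting cells Cxcr3 had 14.8, 36.8 and 18.6 CPM per kb and Ccr10 had 23.0, 9.06 and 25.3 CPM per kb. Ccr10 was the higher of the 2 in libraries 1 and 3, and library 2 alone put the mean of Cxcr3 above that of Ccr10. Ccr10 led in bone marrow at 43.2 CPM per kb. Immunoglobulin genes took 63.3% ± 2.5 (SD, n = 3) of CPM in spleen and 67.5% ± 2.6 (SD, n = 3) in bone marrow antibody-secreting cells, but 3.77% in naive libraries labelled KO and 3.98% in those labelled WT, which lowers the CPM of every other gene in antibody-secreting cells. Recomputed without them, S1pr2 had 13.8, 33.0 and 34.5 CPM in bone marrow and 25.4, 5.41 and 9.83 CPM in spleen antibody-secreting cells, beside 10.2, 15.5 and 6.76 CPM in naive libraries labelled KO. The spleen mean was 13.6 CPM, and 7.62 CPM without library 1, so its place against naive libraries labelled KO (mean 10.8 CPM) rests on that library. By the same measure Cxcr3 was highest in spleen antibody-secreting cells (113 CPM, with germinal centre labelled KO at 49.7 CPM).

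**Figure D3:**
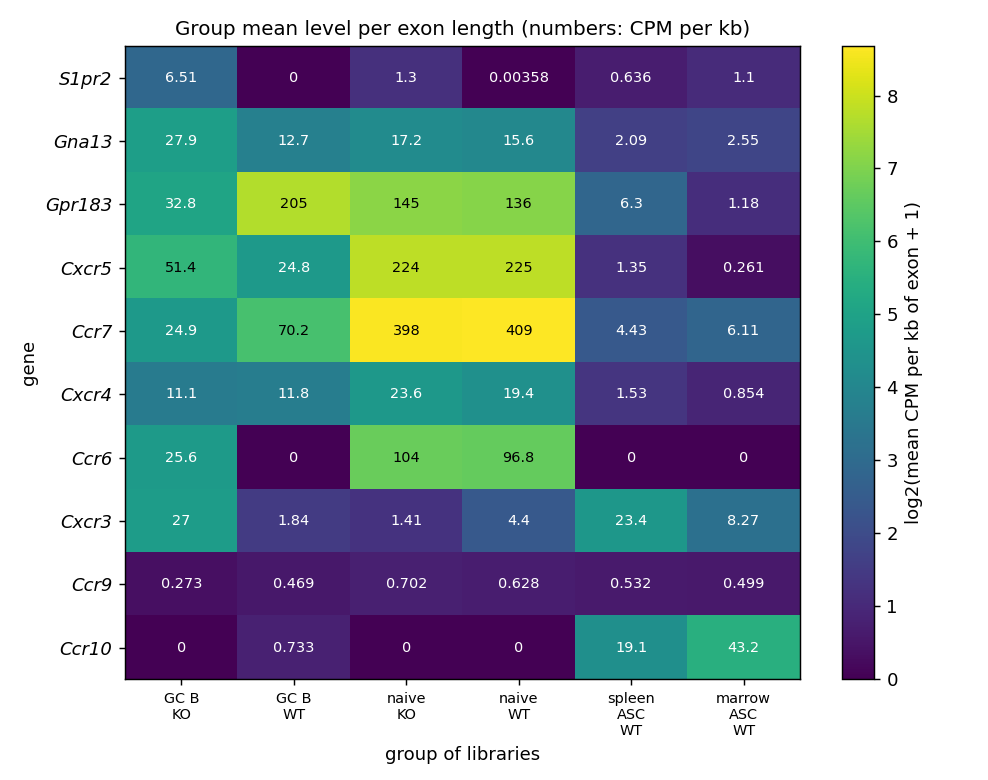
Group mean level of each gene per kb of exon (number in each cell: CPM per kb; colour: log2 of that value + 1) in the 6 groups of libraries, labelled as in the plot of levels by library. Ccr7 is brightest in naive B cells (398 in KO and 409 in WT), Gpr183 in germinal centre B cells labelled WT (205) and Ccr10 in bone marrow antibody-secreting cells (43.2).

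The genes whose log2(CPM + 1) most resembled each member over the 19 libraries were picked by Pearson r among 6930 genes; the points share libraries and groups, so r is a description. S1pr2 was most like Gcsam (r = 0.907), a germinal centre B cell adaptor, with Cdc14b and Nuggc next (0.879 and 0.817). Gpr183 was most like Tmem123 (0.982), Grap (0.976) and Fcer2a (0.9752), the CD23 gene of follicular B cells. Cxcr5 was most like the B cell kinase gene Blk (0.992), then Sash3 (0.989) and Eef1a1 (0.986). Ccr6 was most like Myl12b, Plaur and Cd180 (each 0.973), Ccr7 most like Cnpy3 (0.968), Cxcr4 most like Nfe2l2 (0.970) and Gna13 most like Nup98 (0.971). Ccr10 was most like Bhlha15 (0.943), the transcription factor MIST1 of secretory cells. Cxcr3 had the loosest match, with Entpd1 (0.789). Between members the highest value was that of Cxcr4 with Cxcr5 (r = 0.933, 19 libraries).

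Other genes of the pathway were counted in 4 lists in germinal centre B cells. In naive B cells 0 genes of these lists passed the test, like all genes there. Over all 8522 tested genes, 8.54% were higher and 5.09% lower in the libraries labelled KO, and since a gene seen in 1 group alone passes the filter only through that group, the counts below describe the lists and support nothing. Of 15 tested receptors and adhesion genes for trafficking, 5 were higher and 2 lower in the libraries labelled KO (list median 0.07). Cxcr6, Fpr1 and Ccr3 were at 0 in every library labelled WT and passed the filter only through those labelled KO. Cxcr6 and Fpr1 averaged 31.5 and 26.7 CPM in libraries labelled KO, at least 206- and 174-fold higher than the largest WT floor of 3 reads. Fpr1 lost the call in 1 of 17 alternatives (limma adjusted p = 0.0783). Ccr3 had 83.2, 10.8, 8.44 and 20.3 CPM in libraries labelled KO, highest in KO 1; without that library the mean was 13.2 CPM, at least 86.2-fold higher than the floor, and the gene was below the level set for testing. Gpr132, a receptor for lysophospholipids and protons, averaged 4.09 CPM in libraries labelled KO against 85.0 CPM in those labelled WT (log2 difference −4.37, limma adjusted p = 0.00891). Gpr132 lost the call in 2 of 17 alternatives (limma adjusted p = 0.0575 without WT 1). Ccr3 was lost in 4 of the 15 alternatives that tested it, among them those without WT 1 (adjusted p = 0.0568), WT 2 (0.0667) or WT 3 (0.0579) in limma. CXCR6 is known from T and NK cells, and FPR1 and CCR3 from granulocytes and monocytes. T cell genes were higher in the same libraries, and monocyte and macrophage genes (11) summed to 145 to 1591 CPM in libraries labelled KO and 77.1 to 202 CPM in those labelled WT, where 9 of 11 were at 0 in every library. The 4 listed neutrophil genes summed to 161, 0.166, 0 and 221 CPM in the libraries labelled KO, against 0.601, 0 and 0 CPM in those labelled WT. The part of these cell types in the calls was not tested.

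Among 6 tested chemokines and enzymes of ligand turnover, 1 was higher and 3 lower in the libraries labelled KO (8.54% and 5.09% of all tested genes; list median −3.19, all tested genes 0.03). Ccl22, which attracts CCR4-bearing T cells, averaged 2.72 CPM in libraries labelled KO against 192 CPM in those labelled WT (log2 difference −6.51, limma adjusted p = 0.00372). Ccl4 averaged 1.96 CPM in libraries labelled KO against 75.8 CPM in those labelled WT (−5.22, limma adjusted p = 0.00587). It lost the call in 1 of 17 alternatives (limma adjusted p = 0.0753). Sgpl1, the lyase that degrades sphingosine-1-phosphate, the ligand of S1PR2, averaged 16.6 CPM in libraries labelled KO against 169 CPM in those labelled WT (−3.35, limma adjusted p = 0.00243). Ccl5, also a T and NK cell product, was higher, at 80.0 CPM in libraries labelled KO against 0.316 CPM in those labelled WT (5.67, limma adjusted p = 0.00255).

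Among 12 tested regulators of receptors, 3 were higher and 0 lower (8.54% and 5.09% of all; list median 1.41). Rgs13, a germinal centre regulator that shortens G protein signals, averaged 1079 CPM in libraries labelled KO and was at 0 in all 3 labelled WT, at least 7061-fold higher than the floor (limma adjusted p = 6.91e-07), and passed the filter only through the libraries labelled KO. Rgs2 averaged 123 CPM in KO against 25.9 CPM in WT (2.18, limma adjusted p = 0.00174) and the receptor kinase gene Grk6 76.8 CPM in KO against 16.2 CPM in WT (2.20, limma adjusted p = 0.0137). Grk6 lost the call in 2 of 17 alternatives (limma adjusted p of 0.0506 without WT 2 and 0.0944 in the other).

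The last list held 13 tested genes, chiefly transcription factors of B cell migration and fate, and also S1pr1 and the cytokine subunit gene Ebi3; 4 were higher and 5 lower (8.54% and 5.09% of all tested genes; list median 0.07). Bcl6, the factor that defines germinal centre B cells, averaged 34.0 CPM in libraries labelled KO against 1.03 CPM in those labelled WT (4.13, limma adjusted p = 0.00384). It lost the call in 1 of 17 alternatives (limma adjusted p = 0.05003). Factors of plasma cell fate were lower: Prdm1 averaged 7.09 CPM in KO against 82.2 CPM in WT (−4.27, limma adjusted p = 0.0261) and Xbp1 478 CPM in KO against 3023 CPM in WT (−2.65, limma adjusted p = 9.64e-05). Ebi3 averaged 25.3 CPM in KO against 439 CPM in WT. Prdm1 lost the call in 6 of 17 alternatives (limma adjusted p of up to 0.110), among them those without WT 1 (0.105), WT 2 (0.109) or WT 3 (0.0757). The sum of 9 plasma cell genes overlapped, at 9111 ± 3615 CPM (SD, n = 4) in libraries labelled KO and 9375 ± 2300 CPM (SD, n = 3) in those labelled WT. Without both KO 1 and WT 3, 4, 3, 2 and 4 genes passed in the 4 lists as ordered here, and 4 members did: S1pr2, Gpr183, Ccr6 and Cxcr3.

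**Figure D4:**
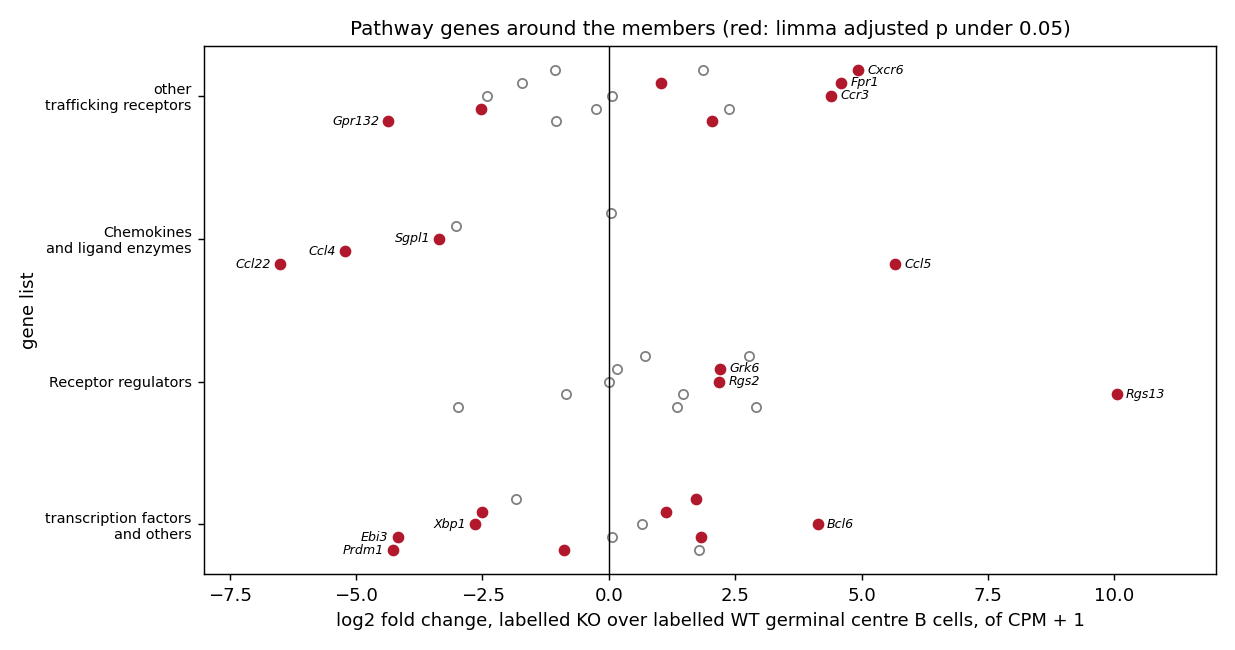
Log2 fold change of CPM + 1 in germinal centre B cells, labelled KO over labelled WT, for the tested genes of the 4 pathway lists (1 point per gene; red points passed limma's adjusted p under 0.05 and up to 4 per list are named). Rgs13 lies farthest to the right at 10.04 and Ccl22 farthest to the left at −6.51.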

How the data were processed

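RNA of 19 sorted B lineage libraries in 6 groups was analysed from values that the authors deposited as CPM in 4 tables whose columns sum to 1000000. Reads were aligned with STAR to mm10, per the submitters' processing notes; for the counting tool, annotation, strand setting and versions nothing was given in the sources used here, and reads of overlapping genes could not be told apart. The germinal centre table, of 17939 genes, had 0.0001 added to each value, which was subtracted. Of 19416 rows in each other table, 19, whose gene names had become spreadsheet dates, were left out, and 19397 were used.

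The worth of 1 read gave each depth, and the share of values under 1000 reads that came within 0.02 of a whole read was 61.5% to 67.8% for germinal centre and 85.3% to 88.9% for the other libraries. The values thus come from estimated counts, and no count test was used. For genes at 0 a floor of 3 reads in each library was used; it covers counting error only. No ribosomal protein gene checked was at 0 in any library.

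On each whole table, limma 3.58.1 (lmFit, eBayes with trend, R 4.3.3) was run on log2(CPM + 1), with no covariate, for genes averaging 10 CPM or more, with a threshold of 0.05 on Benjamini-Hochberg adjusted p. The difference between cell types was fitted over 13 libraries. Levels across tables, which were made separately, are described only. Marker sums were compared with exact permutation tests. The members and gene lists were chosen with earlier results of these data known. Named genes are the members, Pik3cg, up to 4 called genes of each of 4 pathway lists by size of change (1 further list is not reported here), and the 3 genes most like each member that reached 10 CPM in a group. Promoters are from RefSeq (GRCm38.p6), and positions and exon lengths from GENCODE on mm10. Alternatives changed the pseudocount, filter, scaling, estimation and libraries, or added a replicate block. Python 3.11.15, pandas 2.3.3 and SciPy 1.17.1 were used.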

Additional observations from a re-analysis of the deposited data

Results flagged for a closer look

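In 8 of 34 measures, all taken on the same 4 germinal centre libraries labelled KO, 1 library stood apart from the other 3 by Dixon's test at 95%. The test's rate of about 1 in 20 is for independent, normally distributed measures. These measures share libraries and some hold zeros, so their count cannot be set against that rate. Among receptors the flagged values were Ccr9 in KO 1 (11.2 CPM), Ccr3 in KO 1 (83.2 CPM) and Cxcr6 in KO 3 (52.6 CPM). Among chemokines they were Ccl4 in KO 3 (6.86 CPM) and Ccl22 in KO 1 (10.9 CPM). Among marker sums they were T cell genes in KO 2 (2591 CPM), erythroid genes in KO 1 (2971 CPM) and, on the low side, pan-B cell genes in KO 4 (6617 CPM).

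For 4 members the difference between libraries labelled KO and WT was itself different in germinal centre and naive B cells: 2.28 log2 units for S1pr2, −2.78 for Gpr183, 5.47 for Ccr6 and 5.92 for Cxcr3 (germinal centre minus naive, limma adjusted p under the threshold for each). S1pr2 and Cxcr3 reached the level set for testing only through germinal centre libraries labelled KO, and S1pr2 lost the call in 11 of 22 alternatives. Naive libraries labelled WT are headed HET, so the genotypes compared may not be the same in both cell types.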

How the results depend on the processing

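In germinal centre B cells S1pr2, Gpr183 and Ccr6 passed under all 17 alternatives, and Gpr183, Ccr6 and Cxcr3 kept their difference between cell types under all 22. The log2 difference in germinal centre B cells ran from 3.47 to 8.98 for S1pr2 and from 3.41 to 8.85 for Ccr6 over the alternatives. Over all alternatives, 16 of 136 values of members in germinal centre B cells lost the call and 5 reversed, 12 of 90 in naive B cells reversed, and for the difference 11 of 176 lost the call, 2 gained it and 1 reversed. Of 253 values of named pathway genes 17 lost the call and 0 reversed. The cause of lost and reversed calls was not tested. Of 250 group levels 18 moved by more than 1 SD, all of them levels of antibody-secreting cells in CPM recomputed without immunoglobulin genes.

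The count of 1162 called genes in germinal centre B cells (728 higher, 434 lower) was 603 to 1134 when 1 library was left out (427 to 669 higher, 176 to 465 lower), lowest without WT 2 (603), WT 3 (712) and WT 1 (732). It was 432 (291 higher, 141 lower) without both KO 1 and WT 3. Members called there were 3 to 6 when 1 library was left out, 3 without WT 1, and 4 with no filter on low values. Genes with a lower difference between cell types numbered 250, 376 with sample weights and 159 to 333 when 1 library was left out. Median-of-ratios scaling moved the median log2 change of all tested genes in germinal centre B cells to −0.08, against 0.03, and 6 members were called under it.

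Reversed values were all near 0 and not called. Cxcr4 in germinal centre B cells was 0.28 without both libraries and −0.36 to 0.12 when 1 was left out. In naive B cells the values when 1 library was left out ran from −0.000645 to 0.16 for Gpr183, −0.00854 to 0.57 for Cxcr4, −0.19 to 0.16 for Cxcr5 (0.00271 with sample weights), −0.00251 to 0.17 for Ccr6, −0.14 to 0.0282 for Ccr7 and −0.13 to 0.42 for Gna13. The difference between cell types for Cxcr4 was 0.0192 without both libraries, and that for Pik3cg ran from −1.03 to 0.0163 when 1 was left out.

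Libraries of KO and WT share replicate numbers, which are those of the sample titles. In the column names the numbers of germinal centre WT 2 and WT 3 are swapped. Deviations of same-numbered libraries from their group means had r of at most 0.0787 in germinal centre and 0.0379 in naive B cells. Libraries with unlike numbers reached 0.0261 and 0.0643. Such values cannot show whether the numbers pair libraries. With a replicate block 831 genes and 4 members (S1pr2, Gpr183, Ccr6 and Gna13) were called in germinal centre B cells, and 0 in naive B cells. At 10.2 to 21.6 M reads, a gene at 0 may still lie under 3 reads per library.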
